A study of Mus musculus with 4 samples.

Results

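Arginine sits at a branch point of macrophage metabolism. Arginase 1, encoded by *Arg1*, splits it into ornithine and urea, and inducible nitric oxide synthase, encoded by *Nos2*, turns the same substrate into nitric oxide and citrulline. The cationic amino acid transporter CAT2, encoded by *Slc7a2*, brings arginine into activated myeloid cells, argininosuccinate synthase (*Ass1*) and argininosuccinate lyase (*Asl*) rebuild it from citrulline, *Arg2* encodes the mitochondrial arginase, and ornithine decarboxylase (*Odc1*) takes ornithine on to polyamines. Tumor macrophages are known for *Arg1* and, in a classically activated state, for *Nos2*.

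These 7 genes of arginine use were chosen by symbol from the 32285 genes of the CD45 sort matrix, and all 7 were found and measured. The cells came from subcutaneous tumors of B16-F10 mouse melanoma cells, a clone carrying a dox-inducible lentiviral ZsGreen (ZsG), grown in wild-type C57BL/6 mice that all drank dox. Tumors were taken on day 8, and living CD45-positive immune cells were sorted by fluorescence of the tumor-derived protein into ZsG-negative and ZsG-positive cells. Both were profiled by 10x Chromium 3′ single-cell RNA-seq. The paper states that this sort selected bright ZsG-positive cells, and that most lymphocytes with ZsG were collected in the ZsG-negative gate. ZsG-negative here thus means not bright, rather than free of the protein. A separate sort of T cells was also split on ZsG. How many mice were pooled was not given in the sources used here, and with 1 library per group no value describes the spread between mice and no test between groups was possible. All intervals below are exact 95% intervals that cover counting error only.

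After filtering, 4699 ZsG-negative and 4123 ZsG-positive cells remained, with medians of 5769 and 9928 unique molecules (UMIs) per cell, and 5 barcodes occurred in both libraries. Macrophages and monocytes were taken as the 3245 cells with at least 5 UMIs of *Lyz2*, the lysozyme gene of myeloid cells, outside lymphoid and dendritic cell (DC) clusters. Only 253 of them were ZsG-negative and 2992 were ZsG-positive. Clustered without the genes of arginine metabolism, they fell into 7 classes named by their markers. The ZsG-negative cells were 166 non-classical monocyte-like, 70 inflammatory monocyte-like, 16 of a T cell gene-bearing class and 1 hypoxic macrophage-like cell, whereas the ZsG-positive cells held 27, 598, 187 and 333 of these classes. The MHC class II-led class (1091 cells, led by *Ly6i*, *Gbp2b* and *H2-Eb1* and given no cell type name), the C1q macrophage-like class (525 cells) and the cycling class (231 cells) were ZsG-positive in every cell. Heat shock genes *Hspa1a* and *Hspa1b* were among the leading genes of the hypoxic macrophage-like class, beside *Mmp12*, *Inhba*, *Hilpda* and *Vegfa*. In the T cell gene-bearing class 29.6% of cells had one of the highest 5% of doublet scores of their library, and its summed T cell markers stood at 1337 UMIs per 1000000 UMIs of the pooled cells (CPM).

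On mouse build GRCm38 (mm10) the genes lie on 6 chromosomes. *Arg1* (ENSMUSG00000019987) spans chr10:24915221-24927484 on the minus strand and *Nos2* (ENSMUSG00000020826) chr11:78920787-78960254 on the plus strand. *Slc7a2* (ENSMUSG00000031596) spans chr8:40862396-40922308, *Arg2* (ENSMUSG00000021125) chr12:79130777-79156301, *Ass1* (ENSMUSG00000076441) chr2:31470207-31520672 and *Odc1* (ENSMUSG00000011179) chr12:17544794-17551505, all on the plus strand. *Asl* (ENSMUSG00000025533) spans chr5:130011258-130029247 on the minus strand. No exon of another gene on the same strand overlaps any of the 7 in GENCODE. Promoter sequences were at hand in RefSeq for 2 of the 7, *Ass1* and *Odc1*, both of which were higher in ZsG-positive than in ZsG-negative myeloid cells (see the gate comparison). The 250 bases before the start of the RefSeq gene model (GRCm38.p6, plus strand, 5′ to 3′), which for both genes lies downstream of the GENCODE start given above, so that the windows reach into the GENCODE genes, are shown for the hexamer CACGTG, a core E-box that reads the same on both strands and that is bound, among others, by Myc, of which *Odc1* is a textbook target. Capitals mark the hexamer.
Ass1 chr2:31470020-31470269: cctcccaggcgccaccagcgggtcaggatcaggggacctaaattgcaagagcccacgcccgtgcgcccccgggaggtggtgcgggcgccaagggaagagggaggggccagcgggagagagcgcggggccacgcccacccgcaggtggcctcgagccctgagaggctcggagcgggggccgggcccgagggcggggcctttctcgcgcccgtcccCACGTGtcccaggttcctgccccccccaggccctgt
Odc1 chr12:17544623-17544872: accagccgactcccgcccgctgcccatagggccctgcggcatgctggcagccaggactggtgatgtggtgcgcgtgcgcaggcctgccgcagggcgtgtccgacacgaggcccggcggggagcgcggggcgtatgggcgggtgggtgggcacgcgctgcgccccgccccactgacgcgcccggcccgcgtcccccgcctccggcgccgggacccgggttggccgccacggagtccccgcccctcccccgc
The hexamer occurred 1 time in the *Ass1* window, beginning 36 bases before the RefSeq start, and not in the *Odc1* window. It occurred in 1978 of 32851 windows of the same length (6.02%), so a single match among these genes is a description of the letters only.

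*Arg1* was highest in the hypoxic and C1q macrophage-like classes. Its level was 987 CPM (952 to 1024) in the hypoxic class and 435 (420 to 451) in the C1q class. It was 140 in the T cell gene-bearing class, 118 (109 to 127) in cycling cells and 99.5 (94.3 to 105) in the MHC class II-led class. The levels in the latter classes were thus well below that in the C1q class. DC2-like cells (60.9, 55.6 to 66.7) and DC1-like cells (49.0, 39.7 to 59.8) followed with overlapping intervals, as did mature DC-like cells (19.4, 11.9 to 30.0) and inflammatory monocyte-like cells (17.4, 13.9 to 21.6). In lymphoid cells the level was 6.03 in T cell-like and 0.755 in NK/ILC-like cells. No *Arg1* UMI was found in 193 non-classical monocyte-like, 217 pDC-like or 40 B cell-like cells.

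*Arg1* was detected in 48.5% of hypoxic (43.0 to 54.0), 40.0% of C1q (35.8 to 44.3) and 19.98% of MHC class II-led cells (17.6 to 22.5), against 0.380% of NK/ILC-like and 1.99% of T cell-like cells. The classes differed in depth, with medians of 7553.5, 12454, 10670, 4551 and 7073 UMIs per cell in that order. When each cell was thinned to 3000 UMIs the shares became 40.1%, 26.3%, 10.8%, 0.260% and 0.890%, leaving out 7, 1, 11, 317 and 70 shallower cells. At equal depth the hypoxic class thus stood above the C1q class (34.7 to 45.6 against 22.6 to 30.3), although the unthinned intervals overlapped.

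The transcript was concentrated in few cells. The 5% of myeloid cells with the most *Arg1* held 71.0% of its UMIs. Among cells with any, the median was 10.5 UMIs in the hypoxic and 7 in the C1q class, with single cells reaching 116 and 148, but 2 in the MHC class II-led class and 1 in inflammatory monocyte-like cells. Of the 43 inflammatory monocyte-like cells with *Arg1*, 35 had a single UMI. Their level has to be read against lymphoid cells of the same library. In the ZsG-positive library it was 20.1 CPM (16.04 to 25.0) in inflammatory monocyte-like cells, 31.0 (24.9 to 38.1) in T cell-like and 9.43 (3.06 to 21.996) in NK/ILC-like cells, and 7.19%, 9.22% and 4.42% of cells were positive. In T cell-like cells 3 cells with at least 10 UMIs held 57 of the 89 UMIs, and in inflammatory monocyte-like cells 2 held 24 of 83. Without such cells, an alternative chosen after seeing the data, the levels were 11.3 (7.75 to 16.002) and 14.4 (10.97 to 18.6), with overlapping intervals. Over the class as a whole, inflammatory monocyte-like *Arg1* was therefore not distinguishable from the level in lymphoid cells. The source of the lymphoid UMIs was not tested. DC2-like *Arg1* with all cells (71.0, 64.8 to 77.7) was above the T cell-like level with all cells. There 15 cells had at least 10 UMIs, and 23 of 458 cells held 85.2% of the UMIs. The share of positive cells, 13.8% (10.7 to 17.3), overlapped that of T cell-like cells (5.72 to 13.9). The DC2-like level without such cells was not computed.

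*Nos2* was highest in the hypoxic macrophage-like class, which held 565 of its 1123 UMIs in myeloid cells and 126 of the 328 positive cells. Its level there was 192 CPM (176.9 to 209). It was 22.5 (18.1 to 27.8) in the T cell gene-bearing class, 22.03 (19.6 to 24.7) in the MHC class II-led class and 14.6 (12.0 to 17.7) in the C1q class, the first pair being indistinguishable. Cycling cells (7.38), inflammatory monocyte-like cells (6.71) and DC2-like cells (5.68) had overlapping intervals, NK/ILC-like and T cell-like cells had 0.189 and 0.258, and non-classical monocyte-like cells none. *Nos2* was detected in 37.7% of hypoxic cells (32.5 to 43.2) and, after thinning, in 26.0%. The MHC class II-led class had 9.26% (thinned 4.07%) and the C1q class 7.62% (thinned 2.48%). In NK/ILC-like and T cell-like cells 0.114% and 0.228% were positive. Inflammatory monocyte-like *Nos2* in the ZsG-positive library (7.76, 5.31 to 10.96) lay above the T cell-like level there (1.74, 0.565 to 4.06) but overlapped the NK/ILC-like one (1.89, 0.048 to 10.5). The shares of positive cells, 2.17% (1.16 to 3.69) against 1.38% (0.286 to 3.99) in T cell-like cells, overlapped, and 1 cell held 11 of the 32 UMIs, without which the level was 5.10 (3.16 to 7.80). *Nos2* of inflammatory monocyte-like cells was thus not clearly above the lymphoid levels.

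*Slc7a2*, the arginine importer, had the same highest class. It stood at 56.6 CPM (48.3 to 65.8) in hypoxic cells against 9.71 (8.11 to 11.5) in the MHC class II-led class. The C1q class (6.76), cycling cells (6.64) and the T cell gene-bearing class (6.48) could not be told apart. Inflammatory monocyte-like cells had 3.15, and non-classical monocyte-like cells 0 UMIs, which allows up to 2.50 CPM. *Arg2*, the mitochondrial arginase, was shared between hypoxic cells and monocytes. It stood at 49.4 (41.7 to 58.1) in the hypoxic class, 25.7 (18.2 to 35.3) in non-classical monocyte-like cells, which had no *Arg1* UMI, and 17.6 (14.1 to 21.8) in inflammatory monocyte-like cells. In the MHC class II-led class it was 8.44 and in the C1q class 4.51 (3.08 to 6.36), so the C1q class had *Arg1* with little *Arg2*.

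The recycling and polyamine genes were spread over more cell types. *Ass1* was highest in mature DC-like cells (172, 148 to 199), followed by DC2-like cells (119), the hypoxic class (109), the MHC class II-led class (107) and inflammatory monocyte-like cells (94.6). It was 63.2 in the C1q class, 37.6 in T cell-like, 12.9 in non-classical monocyte-like and 3.71 in NK/ILC-like cells. *Asl* lay between 26.5 and 37.1 CPM in every class but mature DC-like cells (65.1, 50.5 to 82.7) and the few B cell-like cells (6.81, a single UMI). *Odc1* was highest outside the myeloid compartment, at 437 (429 to 446) in T cell-like cells. It was 277 in the T cell gene-bearing class, 257 in NK/ILC-like cells and 237 (219 to 255) in the hypoxic class, then 188 in cycling, 157 in C1q, 148 in MHC class II-led and 79.9 in inflammatory monocyte-like cells.

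The same order can be stated over compartments, counting a gene as past 2-fold if at least 20 UMIs were counted over both sides and its ratio, with 0.5 UMIs added to each sum, was at least 2 either way. Between myeloid and NK/ILC-like cells 44.3% of all genes were past 2-fold (20.6% higher in myeloid cells), and so were *Arg1*, *Arg2*, *Nos2*, *Slc7a2* and *Ass1*, all higher in myeloid cells. For *Ass1* the log2 ratio was 4.55 (4.18 to 4.94), for *Asl* 0.07 (−0.08 to 0.22) and for *Odc1* −0.66 (−0.71 to −0.60). Against T cell-like cells (46.2% of all genes, 21.5% higher and 24.7% lower in myeloid cells) the same genes were past 2-fold in the myeloid direction, *Ass1* by 1.21, and *Odc1* was lower in myeloid cells by a log2 ratio of −1.43 (−1.47 to −1.38). Against DC2-like cells (13.9%, 8.25% higher) *Arg1* (1.85), *Nos2* (2.34), *Slc7a2* (1.53) and *Arg2* (1.38) were higher in myeloid cells and *Ass1* had a log2 ratio of −0.46. Of the DC2-like cells 60.9% themselves had at least 5 *Lyz2* UMIs and were set apart by their cluster only.

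The sort on ZsG addressed how immune cells bright for the tumor protein differ from those that were dim or without it. In all myeloid cells together, 5 of the 7 genes were past 2-fold higher in ZsG-positive cells and 1, *Arg2*, past 2-fold lower, where 28.5% of 11732 genes were past 2-fold either way (16.2% higher, 12.3% lower). The median log2 ratio of the 7 was 1.91, against 0.01 over all genes. *Arg1* had 8574 UMIs in ZsG-positive and 9 in ZsG-negative cells, or 233 against 4.05 CPM, a log2 ratio of 5.85 (4.92 to 6.98). All 9 ZsG-negative UMIs were in 1 cell, the only hypoxic macrophage-like cell of that library. With a mitochondrial limit of 5% in place of 10%, re-clustering placed 1 more ZsG-negative cell, with 26 *Arg1* UMIs, among the myeloid cells and the log2 ratio was 3.83 (3.36 to 4.35). *Nos2* had 1123 UMIs against 0, at least 22.7-fold higher when 3 UMIs are taken as the floor of the ZsG-negative library. *Slc7a2* had 419 against 1, a log2 ratio of 4.66 (2.18 to 9.97).

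*Ass1* stood at 90.7 against 23.8 CPM, a log2 ratio of 1.93 (1.54 to 2.35), and *Odc1* at 169 against 58.0, a log2 ratio of 1.54 (1.29 to 1.81). *Asl* did not differ beyond counting error (34.5 against 29.7, log2 ratio 0.22, −0.14 to 0.60). *Arg2* alone went the other way, with 10.6 against 24.7 and a log2 ratio of −1.22 (−1.63 to −0.78). Most ZsG-negative myeloid cells were non-classical monocyte-like, so in these sums the gate and the make-up of classes cannot be told apart. Summed markers of melanoma cells (*Mlana*, *Pmel*, *Dct*, *Tyrp1*, *Tyr*) also differed between classes: 1.35 CPM in non-classical and 3.78 in inflammatory monocyte-like cells, with 4 and 1 of the 5 at 0, and 22.9 in the MHC class II-led, 36.1 in the C1q and 33.7 in the hypoxic class, none at 0. Their part in the differences was not tested.

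**Figure D1:**
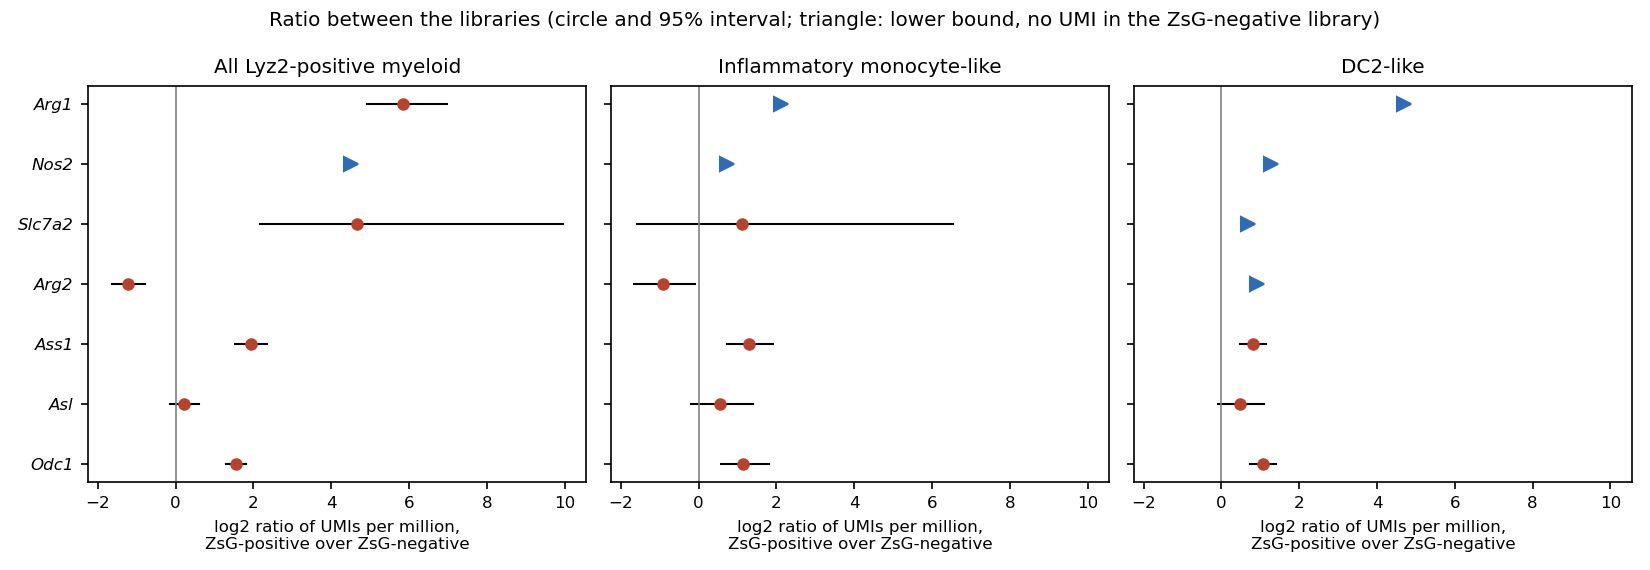
Log2 ratio of CPM, ZsG-positive over ZsG-negative, for each of the 7 genes in all myeloid cells and within single classes, with 95% intervals from counts; arrows mark lower bounds where the ZsG-negative library had 0 UMIs. *Arg1* and *Nos2* were far above 0 in all myeloid cells (5.85 and at least 4.50), *Asl* lay near 0, and *Arg2* lay below 0 in all myeloid and inflammatory monocyte-like cells.

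Within inflammatory monocyte-like cells alone (598 against 70 cells), the gate differences were smaller. There 11.7% of 8070 genes were past 2-fold (7.19% higher in ZsG-positive cells), as were 4 of the 6 arginine genes with enough UMIs by the same rule, *Arg1*, *Nos2*, *Ass1* and *Odc1*, all higher in ZsG-positive cells. *Arg1* had 83 UMIs against 0 (at least 4.32-fold), not distinguishable from lymphoid cells of its library as above. *Nos2* had 32 against 0, for which the floor of 3 UMIs gives a bound of 1.67-fold, short of 2-fold. *Ass1* was 103 against 41.9 CPM, a log2 ratio of 1.30 (0.73 to 1.91), and *Odc1* 86.4 against 38.8, a log2 ratio of 1.15 (0.57 to 1.80). *Ass1* and *Odc1* were thus higher in ZsG-positive cells also within 1 class. Lymphoid cells differed between the same libraries too, given as ZsG-positive against ZsG-negative. *Ass1* was 61.2 (52.5 to 71.0) against 34.3 (31.8 to 36.9) in T cell-like and 15.1 (6.51 to 29.7) against 3.32 (2.47 to 4.36) in NK/ILC-like cells. *Odc1* was 552 against 421 in T cell-like cells, but 219 against 258 in NK/ILC-like cells. Whether the monocyte-like differences are separate from these was not tested. *Arg2* was 15.8 against 29.5 (log2 ratio −0.90, −1.66 to −0.08), and *Slc7a2* had 14 UMIs against 1.

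In non-classical monocyte-like cells (27 against 166) *Arg1*, *Nos2* and *Slc7a2* were at 0 in both libraries. None of the 3 genes with enough UMIs (*Arg2*, *Asl*, *Odc1*) was past 2-fold, where 13.3% of all genes were. *Arg2* was 28.7 against 25.4 CPM, but the interval of its log2 ratio ran from −1.78 to 1.66. DC2-like cells (458 against 104, 18.5% of all genes past 2-fold, 10.2% higher) had 5 of 7 higher by the same rule, *Arg1*, *Nos2*, *Odc1*, *Arg2* and *Slc7a2*. Their *Arg1* had 472 UMIs against 0 (at least 26.0-fold) and their *Nos2* 44 against 0 (at least 2.43-fold). *Arg2* (34 against 0) and *Slc7a2* (29 against 0) also had no UMI in ZsG-negative DC2-like cells. With the floor of 3 UMIs their bounds were 1.88-fold and 1.60-fold, short of 2-fold. In the ZsG-positive library the intervals of DC2-like *Nos2* (4.81 to 8.89), *Arg2* (3.54 to 7.15) and *Slc7a2* (2.92 to 6.27) overlapped those of the 113 NK/ILC-like cells. They lay above those of T cell-like cells. T cell-like *Arg1* also differed between the libraries, at 31.0 against 2.51 CPM. *Odc1* was higher by a log2 ratio of 1.06 (0.73 to 1.41) and *Ass1* by 0.80 (0.47 to 1.15).

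Other genes of arginine, nitric oxide, creatine and polyamine metabolism, a list of 37, moved less as a group. In all myeloid cells 29 had enough UMIs, of which 5 were past 2-fold higher in ZsG-positive cells, 2 lower and 22 neither, near the 28.5% of all genes, and their median log2 ratio was 0.33. Those higher were *Gatm*, the first enzyme of creatine synthesis, with a log2 ratio of 3.26 (2.60 to 4.02), the dimethylarginine hydrolase *Ddah2* (102 UMIs against 1), spermidine synthase *Srm* (1.90, 1.38 to 2.47), the amino acid transporter heavy chain *Slc3a2* (298 against 96.2 CPM) and polyamine oxidase *Paox* (1.52). Those lower were *Pts*, of tetrahydrobiopterin synthesis (25.0 against 57.6), and the antizyme *Oaz2* (12.6 against 28.8). The spermidine acetyltransferase *Sat1* was 367 against 668 CPM, short of 2-fold. In inflammatory monocyte-like cells alone, 2 of 24 were past 2-fold, *Slc3a2* higher (253 against 104) and *Pts* lower (20.6 against 41.9). There 11.7% of all genes were past 2-fold, so the list did not stand out. *Cps1*, *Otc*, *Nags*, *Agmat* and *Slc7a3*, mostly genes of the urea cycle, had no UMI in myeloid cells.

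Among the macrophage-like classes, the hypoxic and C1q classes both had *Arg1* but differed in the other genes. Of all genes 15.2% were past 2-fold between them (6.2% higher in the hypoxic class), and of the 7 genes 4 were, all higher in the hypoxic class. *Nos2* had a log2 ratio of 3.72 (3.41 to 4.03), *Arg2* 3.45 (2.89 to 4.05), *Slc7a2* 3.06 (2.59 to 3.56) and *Arg1* 1.18 (1.11 to 1.26). *Ass1* (0.79, 0.58 to 1.00) and *Odc1* (0.59, 0.45 to 0.73) were higher by less than 2-fold, and *Asl* was level (0.01, −0.33 to 0.34). The median over all genes was −0.19, and scaling by TMM factors would raise every ratio by 0.15. The *Arg1* ratio depended on how the classes were drawn, being 2.28 at the coarser clustering resolution of 0.3. That resolution drew no MHC class II-led class. Its C1q class had 1750 cells, with *H2-Eb1* and *Gbp2b* among the leading genes, and its hypoxic class 203 cells. Of the 37 pathway genes 26 had enough UMIs: spermine oxidase *Smox* was higher in the hypoxic class (116 against 18.7 CPM, log2 ratio 2.63, 2.34 to 2.93), and 6 were lower, *Gatm* (27.9 against 108), *Paox* (12.9 against 45.1), *Ddah2*, *Srm*, *Gamt* and *Qdpr*. Their median log2 ratio was −0.50. The polyamine genes thus did not go 1 way. Of the catabolic oxidases *Smox* was higher and *Paox* lower, and the synthase *Srm* was lower.

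Some activation genes that usually go with *Arg1* or *Nos2* were higher in the hypoxic than in the C1q class, from both lists. Where 6.2% of all genes were past 2-fold higher, of 13 classical activation genes with enough UMIs 6 were, and none was lower. They were *Il6* (log2 ratio 2.73), *Ptgs2* (781 against 216 CPM), *Il1a*, *Il1b*, *Ccl5* and *Acod1*. Of 12 alternative activation genes 4 were higher, *Retnla* (3.42), *Ccl24*, *Chil3* (287 against 127) and *Il1rn* (746 against 370), 1 was lower, the mannose receptor *Mrc1* (119 against 269), and 7 were neither. In the comparison of gates over all myeloid cells 16.2% of all genes were higher and 12.3% lower. There 7 of 12 alternative activation genes were higher in ZsG-positive cells and *Chil3* lower. Of 14 classical activation genes *Il12b* was higher and *Il6*, *Cxcl10*, *Irf1* and *Il1b* were lower. Gate and make-up of classes cannot be told apart in these sums. Within inflammatory monocyte-like cells (7.19% of all genes higher) 2 of 8 alternative and 1 of 13 classical activation genes were higher, and 0 and 1 lower. In DC2-like cells (10.2%) these were 8 of 12 and 5 of 13 higher, and 0 and 1 lower. Both lists were chosen with earlier results of these data known. Neither was left out of the variable genes, so their genes could shape the classes compared here. *Mrc1* is also among the markers that named the C1q class, so its lower level in the hypoxic class was partly built in. Likewise *Chil3* is a marker of the inflammatory monocyte-like class, and *Mgl2* and *Clec10a* are markers of DC2-like cells.

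Against the MHC class II-led class (13.6% of all genes past 2-fold, 6.48% higher), the hypoxic class was higher in the same genes, *Arg1* by a log2 ratio of 3.31 (3.22 to 3.40), *Nos2* by 3.13 (2.92 to 3.34), *Arg2* by 2.55 and *Slc7a2* by 2.54, whereas *Ass1* was level (0.03, −0.15 to 0.20). Of 27 pathway genes *Smox* and *Sat1* were past 2-fold higher there and *Srm*, *Gatm* and *Qdpr* lower. Of 14 classical activation genes 0 were past 2-fold higher in the hypoxic class and 2, *Cxcl9* and *Il12b*, were lower. Of 12 alternative activation genes 2, *Retnla* and *Ccl24*, were higher and 0 lower. The higher classical activation genes of the hypoxic class were thus seen against the C1q class, not against this one. Between the C1q and the MHC class II-led class, where 6.01% of all genes were past 2-fold (3.59% higher in C1q cells), *Arg1* was the only one of the 7, higher in the C1q class by 2.13 (2.04 to 2.22). *Nos2* had the opposite sign at −0.59 (−0.93 to −0.26), as did *Ass1* at −0.76 (−0.92 to −0.61). So *Arg1* and *Nos2* did not follow 1 order over these classes. Of 14 classical activation genes 4 were past 2-fold lower in the C1q than in the MHC class II-led class (*Il12b*, *Il6*, *Cxcl10* and *Il1b*) and 0 higher. Between the MHC class II-led and inflammatory monocyte-like classes (15% of all genes), *Arg1* (2.52), *Nos2* (1.71) and *Slc7a2* (1.63) were higher and *Arg2* lower (−1.06) in the former. Between inflammatory and non-classical monocyte-like cells (22.5% of all genes), *Ass1* was higher in the former by 2.88 (2.22 to 3.63). Between cycling and C1q cells (10.5%), *Arg1* was lower in cycling cells by a log2 ratio of −1.89 (−2.01 to −1.76).

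The content of hypoxia transcripts was then followed within classes, as UMIs of *Hilpda*, *Vegfa*, *Ndrg1* and *Slc2a1* per 10000 UMIs of the cell. In C1q cells with under 2, 2 to 5, and 5 or more, *Arg1* was 228, 821 and 932 CPM, in 351, 90 and 84 cells. *Nos2* in the same cells was 4.76, 7.92 and 63.5 (49.7 to 80.0). In C1q cells *Arg1* was thus already high in the middle bin, where *Nos2*, with 9 UMIs, was not distinguishable from the lowest. In the MHC class II-led class *Arg1* was 79.0, 78.8 and 209, *Nos2* 8.99, 21.5 and 68.8, and *Slc7a2* 4.29, 8.90 and 30.2. There the order was the other way, since *Nos2* was higher in the middle than in the lowest bin (17.1 to 26.6 against 6.97 to 11.4) and *Arg1* was not. In DC2-like cells *Arg1* was 24.8, 66.0 and 231 and *Nos2* 1.04, 3.02 and 34.4. Inflammatory monocyte-like cells had *Arg1* of 7.03, 29.2 and 33.7 and *Nos2* of 1.48, 2.44 and 30.1 (19.5 to 44.4). The last *Nos2* value rests on 25 UMIs in 123 cells, of which 1 cell held 11. It lay above the lymphoid *Nos2* levels of the ZsG-positive library given above, but lymphoid cells were not split by hypoxia transcripts. Inflammatory monocyte-like *Arg1* in the last bin (22.4 to 48.7) overlapped the T cell-like level of that library (24.9 to 38.1). It lay just above the NK/ILC-like one (3.06 to 21.996). The highest bin had the highest level of each in these 4 classes, although for *Arg1* in inflammatory monocyte-like cells the intervals of the upper bins overlapped. *Ass1* had no such order, with 59.0, 77.4 and 67.0 in C1q cells.

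**Figure D2:**
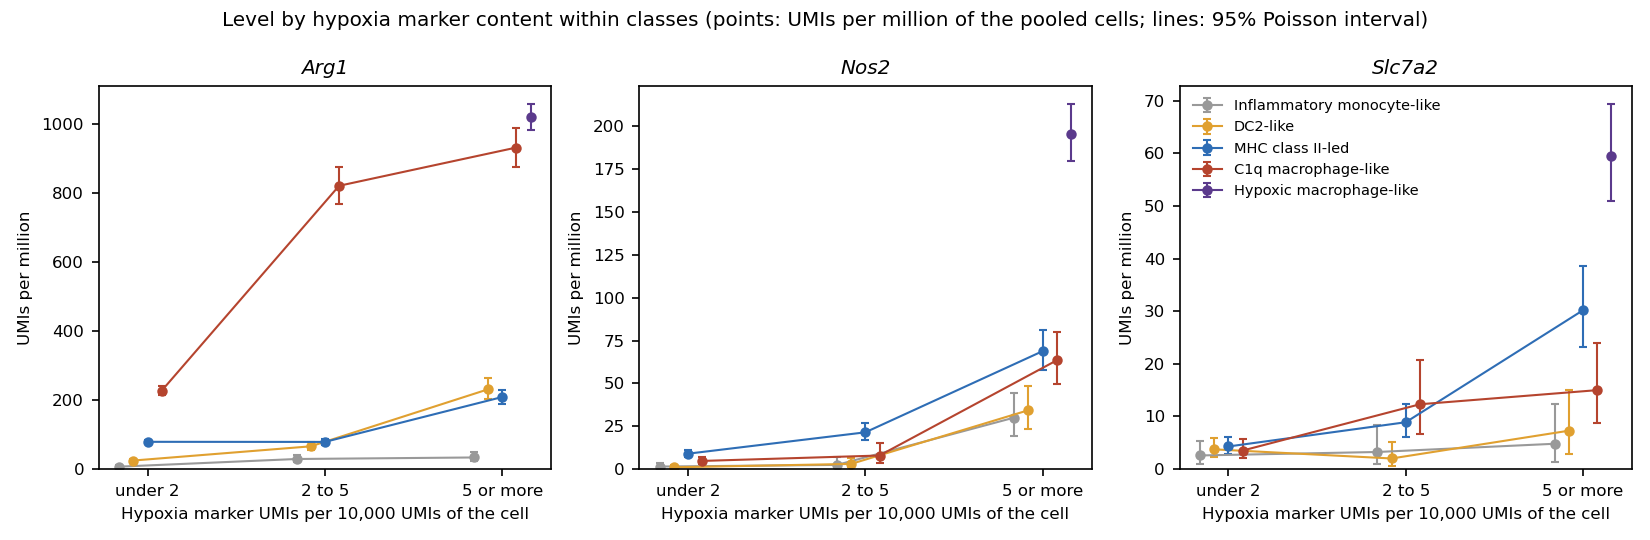
*Arg1*, *Nos2* and *Slc7a2* in CPM of the pooled cells (linear axes) against the cell's content of 4 hypoxia transcripts in 3 bins, for 5 classes, with 95% Poisson intervals; bins of under 20 cells are left out. *Arg1* of C1q cells was 228 and 821 in the first bins, while *Nos2* of the same cells was 4.76 and 7.92 there and 63.5 in the last. In the MHC class II-led class *Arg1* was level over the first bins (79.0 and 78.8) and *Nos2* was not (8.99 and 21.5).

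Over all myeloid cells *Arg1* and *Nos2* were found in the same cell slightly more often than class and depth would give. Within single classes the intervals used here do not settle it. Of 3245 myeloid cells 760 had *Arg1*, 328 had *Nos2* and 146 had both, 614 having only *Arg1* and 182 only *Nos2*. If both were detected independently within each class, library and quintile of depth, 121 cells with both would be expected, giving a ratio of observed to expected of 1.204 (1.02 to 1.42). In the hypoxic class the number was 66 against 64.7 expected, a ratio of 1.02 (0.79 to 1.30). It was 1.46 (0.96 to 2.12) in the C1q class, with 27 cells, and 1.32 (0.88 to 1.91) in the MHC class II-led class, with 28. Each of these class intervals included 1. They treat the observed number as a Poisson count, although the numbers of *Arg1*- and *Nos2*-positive cells were fixed, which makes them too wide. They therefore cannot decide between independent and joint detection within a class. Thinned to 3000 UMIs per cell, the ratio over all myeloid cells was 1.23 (0.92 to 1.60). Doublets were kept, and a doublet can hold both transcripts. Of the cells with both, 10.96% were in the top 5% of doublet scores. That share was 7.33% with only *Arg1*, 8.24% with only *Nos2* and 3.17% with neither. Without the top 5% the ratio was 1.197 (1.0001 to 1.42), so its lower bound lay at 1.

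Detection asks only for 1 UMI, so *Nos2* was also compared over the amount of *Arg1*. In the C1q class 4.13% of cells without *Arg1* had *Nos2* (2.22 to 6.95), 6.30% of those with 1 to 9 *Arg1* UMIs and 22.9% of those with 10 or more (14.4 to 33.4), with median depths of 11614, 13068 and 15246 UMIs. Scaled to depth, *Nos2* in these C1q bins was 4.70 CPM (2.78 to 7.42), 12.0 (7.63 to 18.1) and 46.3 (35.6 to 59.3). In the hypoxic class the shares were 34.9%, 35.1% and 45.5%, with overlapping intervals, and in the MHC class II-led class 8.36%, 13.9% and 8.89%. The levels there were 184, 171 and 219 CPM in the hypoxic and 21.2, 28.3 and 13.9 in the MHC class II-led class. In cycling cells they were 4.85% (2.12 to 9.33), 22.4% (11.8 to 36.6) and 5.88% (0.149 to 28.7), the last of 17 cells, and in the T cell gene-bearing class 12.0%, 12.2% and 41.7%, the last of 12 cells (15.2 to 72.3). *Nos2* was thus more frequent in the highest than in the lowest bin beyond counting error in the C1q class, and in the middle than in the lowest bin in cycling cells. The difference between classes was not tested.

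The importer was found together with both enzymes. *Slc7a2* and *Arg1* were in the same cell 131 times against 90.5 expected, a ratio of 1.45 (1.21 to 1.72). *Slc7a2* and *Nos2* were together in 80 cells, a ratio of 1.62 (1.28 to 2.01). By class that ratio was 2.61 (1.67 to 3.88) in the MHC class II-led class, 1.33 (0.95 to 1.81) in the hypoxic, 1.42 (0.46 to 3.31) in the C1q, 1.83 (0.67 to 3.98) in the cycling and 0.98 (0.20 to 2.87) in the T cell gene-bearing class, and of these intervals only the first excluded 1. *Arg2* was paired with *Nos2* at 1.32 (1.02 to 1.68) and with *Arg1* at 0.95 (0.76 to 1.18). *Ass1*, *Asl* and *Odc1* with *Arg1* lay at 0.96, 1.03 and 1.03, with intervals that included 1.

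The level of *Slc7a2* in the hypoxic class was followed over cells with and without the enzymes. It was 121 CPM (97.9 to 149) in cells with both *Arg1* and *Nos2*. It was 63.8 (43.3 to 90.5) in cells with only *Nos2*, 35.02 (23.8 to 49.7) in those with only *Arg1* and 13.8 (6.89 to 24.7) in those with neither. The importer was thus highest where both transcripts were detected and lowest where neither was. The states also differed in depth, with medians of 9973.5, 7700, 7639.5 and 6319 UMIs per cell in that order. Of the 334 cells, 17 held 57.2% of the *Slc7a2* UMIs, a spread between cells that the intervals do not cover. In the MHC class II-led class it was 33.9 (18.6 to 56.9), 26.5 (17.8 to 38.1), 12.1 (8.20 to 17.1) and 6.01 (4.54 to 7.8) in the same order, the first pair overlapping. *Odc1* in the hypoxic class did not separate the states, all 4 intervals overlapping. *Arg2* there was 40.4 in cells with both, 39.5 with only *Arg1*, 72.0 with only *Nos2* and 55.2 with neither.

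Cells of the hypoxic class with only *Arg1* (96 cells) and only *Nos2* (60 cells) differed in few genes, 2.81% of 3238 being past 2-fold. The genes most in favor of *Arg1*-only cells were the neutrophil chemokine *Cxcl1* with a log2 ratio of 3.96 (2.71 to 5.61), the platelet factor *Pf4* with 3.41 (2.93 to 3.94), the collagenase *Mmp13*, the mannose receptor *Mrc1* with 2.04 (1.36 to 2.79), the osteopontin gene *Spp1* with 1.92 (1.67 to 2.18), *Rhoc*, *Flrt2*, *Dhps*, the chemokine *Ccl8* with 1.75 and *Plp2*. Of these, *Pf4*, *Spp1* and *Ccl8* are also among the 10 leading genes of the C1q class. *Dhps*, of the pathway list, makes deoxyhypusine from spermidine, and had 43 UMIs against 7.

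The genes most in favor of *Nos2*-only cells were the T cell chemokine *Ccl5* with a log2 ratio of −3.07 (−3.42 to −2.74), or 98.3 against 827 CPM, *Ly6i* with −2.13, *Lyz1*, the protease inhibitor *Slpi* with −1.88, *Cx3cr1*, the interferon-induced chemokine *Cxcl9* with −1.61 (−1.77 to −1.45), *AW011738*, the interferon-induced GTPase *Igtp*, *Rsbn1* and *Gpr141*. *Ly6i* also leads the MHC class II-led class. In that class (1.61% of 5951 genes past 2-fold, 190 against 73 cells) *Ccl5* with −1.65 and *Slpi* were again among the 10 genes most in favor of *Nos2*-only cells, led by the cytokine gene *Tnfsf15* with −3.66 (−4.96 to −2.55) and *Lipg*. The melanoma gene *Dct* was among them too (32.9 against 6.23 CPM). The *Arg1*-only side there held *Las1l*, *Ifitm1* and the macrophage elastase *Mmp12* (1.46, 0.77 to 2.21). In the C1q class only 13 cells had *Nos2* without *Arg1*, and 10.5% of genes were past 2-fold, which is not read further.

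**Figure D3:**
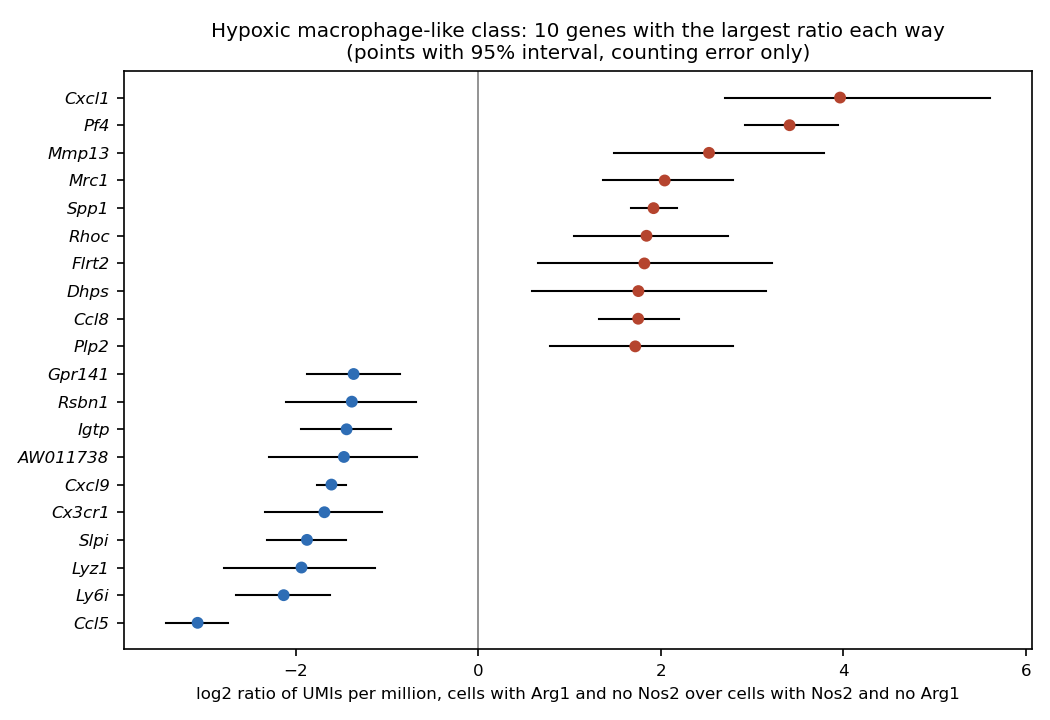
Log2 ratio of CPM, *Arg1*-only over *Nos2*-only cells of the hypoxic macrophage-like class (96 and 60 cells), for the 10 genes furthest in each direction, with 95% intervals from counts. *Cxcl1* (3.96) and *Pf4* (3.41) lie furthest toward *Arg1*-only cells and *Ccl5* (−3.07) and *Ly6i* (−2.13) toward *Nos2*-only cells.

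Over the 13 groups of a myeloid or DC class in 1 library with at least 50 cells, the genes most like *Arg1* by Pearson's r of log2 levels were *Flrt2* (0.99), *Zfand2a* (0.98), *F7*, *Tpi1*, *Tmem171*, *Pf4*, *Arhgap10*, *Dct*, *Pgm1* and *Lhfpl2* (0.97). Those most like *Nos2* were *Cox4i2* (0.98), *Bnip3* (0.98), *Ak4*, *Pgm1*, *Gys1*, *P2ry2*, *Higd1a*, *Aldoa*, *Mgarp* and *Ero1l* (0.95). Only *Pgm1*, an enzyme of glycogen use, was in both. *Arg1* had an r of 0.92 with *Nos2*, 0.86 with *Slc7a2*, 0.81 with *Odc1*, 0.60 with *Ass1*, 0.36 with *Asl* and 0.11 with *Arg2*. These points share 2 libraries, and groups at 0 weigh heavily on r.

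The T cell sort gave libraries that had no part in the classes above. It held 379 cells with at least 5 *Lyz2* UMIs, 292 under one barcode suffix and 87 under the other, whose ZsG gates could not be assigned. These cells had passed a gate for the T cell receptor beta chain, and doublets among them were not called. *Arg1* stood at 295 and 231 CPM in them, *Nos2* at 29.2 and 16.8 and *Slc7a2* at 9.53 and 18.1. Cells with at least 3 UMIs of the hypoxia transcripts above had *Arg1* of 490 and 373, and cells below that with at least 10 UMIs of *C1qa*, *C1qb* and *C1qc* had 82.7 and 40.1. *Nos2* in the same gates was 54.1 and 27.5 against 4.40 and 2.68. Both transcripts were thus higher with hypoxia transcripts under each suffix. *Arg1* and *Nos2* were together in 19 cells, a ratio to expectation of 1.64 (0.99 to 2.56), an expectation built from gates rather than classes.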

How the data were processed

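The authors deposited whole-number UMI counts per gene and cell barcode, made by aligning 10x 3′ reads to mm10 with Cell Ranger (6.1.2 per the labels, 7.0.0 per the header of the CD45 sort matrix), keeping barcodes called as cells and combining both libraries of a sort. Barcode suffix 1 was ZsG-negative and 2 ZsG-positive in the CD45 sort. In the T cell sort the sources contradict each other on the suffixes, so its values are given by suffix only.

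CD45-sorted cells with 1000 to 5999 genes and under 10% mitochondrial UMIs were kept (4699 and 4123 cells, 41552930 and 50427199 UMIs). Clustering used 2000 variable genes in Seurat 5.3.0 (R 4.3.3), without the 7 genes and the pathway list, then 20 principal components and a resolution of 0.8 for all and 0.5 for *Lyz2*-positive myeloid cells. A cluster took a marker class if at least 3 of its markers were in 10% of cells and at 1.2 times the level of the other cells. Scrublet (scanpy 1.11.5) called 1 and 0 cells as doublets and so did not work. Doublets were kept, and the top 5% of scores was removed as an alternative. UMIs were summed per class and library and divided by the total (UMIs per 1000000, CPM). Sums have exact Poisson, shares Clopper-Pearson and ratios exact conditional intervals (Python 3.11.15, scipy 1.17.1), checked on simulated data. A count of 0 was set to a floor of 3 UMIs for bounds. With 1 library per group no p-value was computed. Cells of the T cell sort passed the same filter and were not clustered.

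UMIs were not scaled to gene length, so levels are compared between cells, not between genes. The 7 genes, the pathway list of 37 and the 2 activation lists of 14 genes were chosen with earlier results of these data known. Of the pathway list, genes with the highest level or ratio are named, up to 8 per comparison. For likeness, the 10 genes with the highest r over groups of at least 50 cells are named, among genes with at least 100 UMIs, on log2(CPM + 1). For *Arg1*-only against *Nos2*-only cells, the 10 genes furthest in each direction are named, among genes with at least 50 UMIs and found in 5% of cells of one side. The clause on activation genes and the remaining pathway genes past 2-fold were named after their values were seen. Gene positions are from GENCODE vM21 and promoters from RefSeq (GRCm38.p6). Sensitivity to TMM factors was computed with edgeR 4.0.16.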

Additional observations from a re-analysis of the deposited data

How the results depend on the processing

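No paired analysis was possible because each group had 1 library, and for the same reason no replicate could be left out. Over 48 alternative values of the main results, 38 were the same within counting error or, for the count of pathway genes, of similar size, 10 moved and 0 changed sign. With a mitochondrial limit of 5% the *Arg1* log2 ratio of ZsG-positive over ZsG-negative myeloid cells was 3.83. In inflammatory monocyte-like cells alone, an alternative chosen after seeing the data, the bounds were 2.11 for *Arg1* and 0.74 for *Nos2*, and 2 pathway genes were past 2-fold in place of 7. For the hypoxic over the C1q class, the *Arg1* log2 ratio was 1.30 without the top 5% of doublet scores, 1.33 with TMM factors, 1.66 with per-cell marker gates and 2.28 at resolution 0.3. *Nos2* gave 3.16 with marker gates and 3.39 at resolution 0.3, which drew no MHC class II-led class. Of 68 alternative values for the other genes 61 stayed, 6 moved and 1 changed sign: *Slc7a2* in C1q over MHC class II-led cells was 0.37 (−0.07 to 0.81) at the 5% limit, against −0.52. Apart from the alternatives built into the classes and totals, the cause was not tested. Removing the T cell gene-bearing class or the 5 shared barcodes, both also chosen after seeing the data, moved no main result. The 253 ZsG-negative myeloid cells, and the 104 ZsG-negative DC2-like cells, limit the precision of the gate ratios.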

Other observations

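Cells of the myeloid clusters under the *Lyz2* limit, 165 in all and 163 of them ZsG-positive, belong to no class above. *Arg1* stood at 612 CPM (566 to 660) in them and *Nos2* at 239 (211 to 270), with 37.6% and 30.3% of cells positive, and *Odc1* at 310 (278 to 345). Of these cells 107 lay in the hypoxic cluster.

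In the ZsG-negative library 21 cells had an *Arg1* UMI, with 67 UMIs in all. Of these, 20 lay in lymphoid clusters and held 58 UMIs, 29 of them in 3 cells with at least 5 *Lyz2* UMIs. The highest of the T cell-like cells had 26.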
